A study of Mus musculus with 454 samples.

Results

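The interferon and chemokine genes described here are 7 transcripts of the mouse nodose ganglion: Cxcl10, Ccl2, Iigp1, Ifi27l2a, Phf11b, Dhx58 and Irf5. They were chosen by their measured levels in these same data, so their differences between groups are given as a description, without a test. They are 7 of the 36920 genes in the table of picked cells and of the 28001 genes in the table of the droplet library, and each was found in both. The study, whose title concerns vagal sensory neurons and feeding, measured messenger RNA in single nodose cells of C57BL/6 wild type mice. One droplet (10x Genomics) library came from mice aged 6 weeks, and hand-picked single cells were amplified by Smart-seq2 from mice aged 8 to 12 weeks. The authors' header lines give each picked cell a mouse number and a target code: Port (9 mice), GastG (5 mice, 60 cells), GastP (3 mice, 45 cells), IntL (3 mice, 44 cells), IntP (4 mice, 45 cells), IntM (3 mice, 45 cells), IntD (3 mice, 35 cells) or na (4 mice, 53 cells). The codes are not expanded in the sources used here, so GastG and GastP together are written as Gast, and the 4 codes beginning with Int as Int. The word Retro, where it stood before a mouse number in the header lines, was taken off and is not expanded either. All groups share one genotype and one dissociation with papain, collagenase and dispase, and none was labelled as infected, inflamed or treated with interferon.

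Interferons bind receptors on the cell surface and act through JAK kinases and STAT factors, which bind elements in the promoters of interferon-stimulated genes. Chemokines are secreted proteins that attract leukocytes: CXCL10 acts on the receptor CXCR3 of activated T cells, and CCL2 acts on CCR2 of monocytes. In sensory ganglia, neuronal cell bodies are wrapped by satellite glia, which express Apoe and Fabp7, and resident macrophages lie beside them, so that RNA of several cell types can enter one droplet or one picked cell.

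On the mouse build GRCm38 (GENCODE annotation), Cxcl10 lies at chr5:92346638-92348889 on the minus strand, inside the span of Art3 on the other strand. Ccl2 lies at chr11:82035571-82037453, overlapping the antisense model Gm17268, and Dhx58 at chr11:100694884-100704271, overlapping Dhx58os. The interval of Irf5 is chr6:29526625-29541871, where Tnpo3 runs on the opposite strand. Ifi27l2a (chr12:103442167-103443680) and Phf11b (chr14:59320964-59341351) overlap no other gene. The kits were not stated to keep strand for the picked cells, so reads of the overlapping pairs cannot be told apart. Phf11b and Ifi27l2a also belong to families of similar genes, and whole read counts made up 94.2% of the picked-cell values for Phf11b and 95.1% for Irf5, against at least 99.4% for the other members.

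RefSeq promoter windows (GRCm38.p6) were matched for 3 of the 7 members. The 250 bases before the start of Cxcl10 and of Phf11b are shown because they hold elements through which interferon and NF-kappaB act, in capitals. In Cxcl10 (chr5:92348890-92349139, minus strand), GAAAGTGAAA has the form of the interferon-stimulated response element (searched as GAAANNGAAA) and lies farthest from the start. GGGAAATTCC and GGGGACTTCC have that of an NF-kappaB site (searched as GGGNNNTTCC), and the nearer ends 95 bases before the start. In Phf11b (chr14:59341331-59341580, minus strand), GAAAAAGAAA lies 50 to 41 bases before the RefSeq start, which lies inside the GENCODE interval of the gene.
Cxcl10: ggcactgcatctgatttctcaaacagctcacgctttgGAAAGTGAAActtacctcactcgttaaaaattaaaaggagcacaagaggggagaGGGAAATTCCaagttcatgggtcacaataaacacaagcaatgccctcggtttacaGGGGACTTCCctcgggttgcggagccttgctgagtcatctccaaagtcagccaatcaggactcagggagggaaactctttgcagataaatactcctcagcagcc
Phf11b: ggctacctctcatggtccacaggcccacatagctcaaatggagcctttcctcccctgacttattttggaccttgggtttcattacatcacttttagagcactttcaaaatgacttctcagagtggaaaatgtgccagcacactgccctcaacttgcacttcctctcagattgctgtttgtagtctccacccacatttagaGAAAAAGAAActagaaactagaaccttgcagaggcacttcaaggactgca
Over both strands of all 32851 RefSeq windows, which reach 50 bases past the start, the response element was found in 3.44% and the NF-kappaB form in 5.56%. The gamma-activated site, searched as TTCNNNGAA, was found in 8.30% of windows and in none of the 3 windows matched here. The window of Irf5 held none of these motifs. A match is a description of the letters and not a measured site.

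All but 3 picked cells passed a minimum of 2000 detected genes, with a median of 1617515 reads (range 3933 to 4692461). Mice are the replicates: each value below is the mean over a mouse's cells of log2(CPM + 1), where CPM is reads scaled to a total of 1e6, for 29 mice of at least 4 cells. Such a mean cannot tell fewer positive cells from less RNA per cell. The 9 neuronal markers summed to 14768 CPM or more in every mouse. Macrophage markers had medians of 2.08 CPM in Port, 2.48 CPM in Gast and 2.59 CPM in Int mice, with 6 of 10, including C1qa, C1qb and Ptprc, not detected in Port, 0 of 10 in Gast and 2 of 10 in Int. The highest mouse had 5.59 CPM in Port, 44.8 CPM in Gast and 61.9 CPM in Int. The 7 satellite glia markers had medians of 1666 CPM, 884 CPM and 852 CPM in the same order. Among the 20 droplet clusters of neurons described below, each picked cell was matched to the one with the highest rank correlation over genes that mark the clusters, from which the members and pathway genes were left out.

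At 10 reads as the minimum, Irf5 was detected in 79.96% of cells, Ifi27l2a in 64.6%, Dhx58 in 51.9%, Ccl2 in 20.7% (93 cells), Iigp1 in 16.9% (76 cells), Phf11b in 12.9% (58 cells) and Cxcl10 in 9.13% (41 cells, exact 95% interval 6.63% to 12.2%). These shares also depend on transcript length and depth. All 7 members passed the filter of 10 reads in 5% of cells. For Cxcl10 the 10 highest cells held 59.1% of all CPM and for Irf5 7.56%, so that the chemokine came from few cells and the transcription factor from many.

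**Figure D1:**
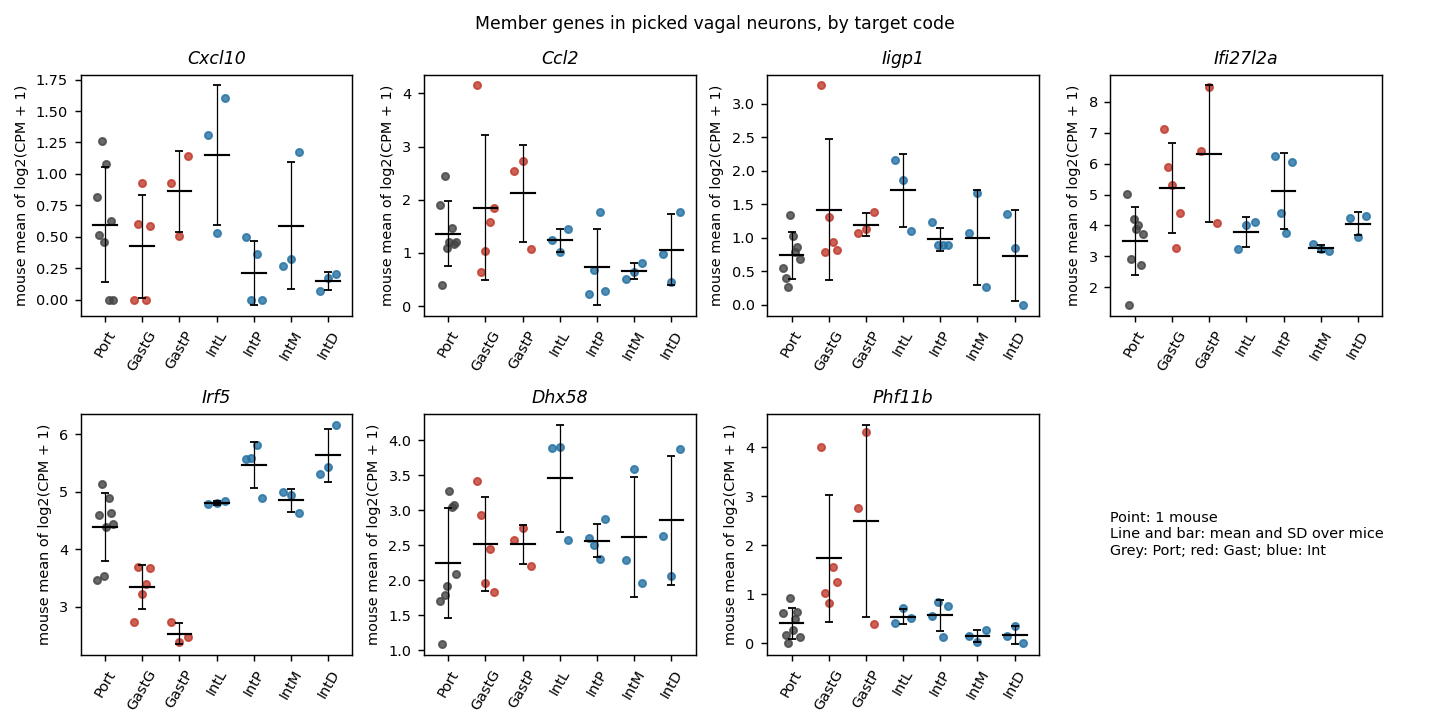
Mean log2(CPM + 1) of each member in each of the 29 mice (points), by target code, with the mean (line) and SD (bar) over mice. The Irf5 panel shows the GastG and GastP mice, at 2.40 to 3.69, below every Int mouse, at 4.62 to 6.16.

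Irf5, a transcription factor that acts downstream of Toll-like receptors, had the clearest separation by target code among the 7 members. Its level in Port mice was 3.47 at the lowest, 4.52 at the median and 5.14 at the highest. In Gast mice the same 3 values were 2.40, 2.98 and 3.69, and in Int mice 4.62, 4.99 and 6.16. The Gast and Int mice did not overlap, and Port lay between them, overlapping both. How many of all genes separate Gast from Int mice in this way was not counted. In limma, at an adjusted p under 0.05, 9.04% of 12688 genes were higher and 5.71% lower in Gast than in Int. By code the means ran in the order IntD 5.63, IntP 5.46, IntM 4.85, IntL 4.81, Port 4.39, GastG 3.35 and GastP 2.53. The mice of each pair of neighbours in that order overlapped except those of GastG and GastP, whose nearest mice were both at 2.74 when rounded. How many of all genes separate GastG from GastP mice was not counted, and limma called 0% of genes between them. GastG mice held 2.74, 3.69, 3.23, 3.395 and 3.67, and GastP mice 2.74, 2.40 and 2.47. The difference was -2.25 ± 0.19 (log2, SE) for Gast against Int, 0.32 ± 0.17 for Port against Gast and Int, 0.81 ± 0.30 for GastG against GastP and -0.51 ± 0.27 for IntL against the other Int codes. Irf5 was detected in 38.9% to 53.3% of cells in the GastP mice, against 100% of cells in every IntD and IntP mouse. Leaving out each mouse in turn moved the Gast against Int difference between -2.30 and -2.17, and edgeR on summed reads gave -1.33.

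Ifi27l2a encodes a small mitochondrial protein that is strongly induced by type I interferon. It ranged over 1.44, 3.81 and 5.02 (lowest, median, highest) in Port mice, 3.28, 5.604 and 8.49 in Gast mice and 3.16, 4.01 and 6.25 in Int mice. Individual GastG mice had 7.13, 5.90, 5.31, 3.28 and 4.40, and GastP mice 6.41, 8.49 and 4.09. All 3 arms overlapped, and the 4 Gast mice numbered 7 to 10 were higher (mean 6.98 ± 1.13, SD) than the 4 numbered above 40 (4.27 ± 0.84). The difference was 1.71 ± 0.50 for Gast against Int and -1.41 ± 0.46 for Port against Gast and Int. Without the Gast mice numbered under 11, a setting chosen after seeing the data, the Gast against Int difference was 0.15, and among mice numbered up to 39 it was 2.92. The Port difference under the same settings was -0.64 and -2.39, and it was -0.46 with edgeR. GastG against GastP differed by -1.12 ± 0.79, and IntL against the other Int codes by -0.36 ± 0.72, where the IntP mice spanned 3.76 to 6.25.

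Phf11b, a gene of the interferon-induced PHD finger 11 family, was low outside the Gast arm. The lowest, median and highest mouse held 0, 0.39 and 0.93 in Port, 0.41, 1.40 and 4.30 in Gast and 0, 0.36 and 0.83 in Int. GastG mice had 4.01, 1.02, 0.83, 1.55 and 1.24, and GastP mice 2.77, 4.30 and 0.41. 3 Gast mice, GastG mouse 7 and GastP mice 9 and 10, stood above all others at 2.77 or more. The difference was 1.75 ± 0.35 for Gast against Int and -0.83 ± 0.33 for Port against Gast and Int. It was 0.45 for Gast against Int without the Gast mice numbered under 11, 1.47 without GastG mouse 7, which had 5 cells, 2.66 among mice numbered up to 39 and 4.27 with edgeR on summed reads. The Port difference was -0.17 without the Gast mice numbered under 11, -1.43 among mice numbered up to 39 and -0.22 with edgeR. Of the 58 cells with Phf11b, 56 also had Ifi27l2a, where 37.5 would be expected from the shares of the pair.

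Ccl2, the monocyte chemoattractant, showed 0.40, 1.21 and 2.45 as the lowest, median and highest Port mouse, 0.64, 1.72 and 4.15 as those of Gast and 0.23, 0.81 and 1.76 as those of Int. GastG mice had 4.15, 0.64, 1.04, 1.59 and 1.85, and GastP mice 2.55, 2.74 and 1.07. The arms overlapped, with 22.5% of Port cells, 31.4% of Gast cells (33 cells) and 9.47% of Int cells at 10 reads, and none of the 35 IntD cells. Gast against Int differed by 1.06 ± 0.34, which was 0.36 without the Gast mice numbered under 11, 0.78 without GastG mouse 7, 1.60 among mice numbered up to 39 and 2.68 with edgeR. Port against Gast and Int differed by -0.09 ± 0.31. Ccl2 and Phf11b were found together in 28 cells, against 12.0 expected from their shares.

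Cxcl10, the ligand of CXCR3, was sparse in every code. It had 0, 0.57 and 1.26 as the lowest, median and highest Port mouse, 0, 0.59 and 1.14 for Gast and 0, 0.32 and 1.61 for Int. IntL mice held 1.31, 0.53 and 1.61, IntP mice 0.50, 0, 0.36 and 0, IntM mice 0.27, 0.32 and 1.17 and IntD mice 0.07, 0.17 and 0.20. At 10 reads it was present in 22.7% of IntL cells (10 of 44), 13.3% of GastP, 11.1% of IntM, 10.0% of Port and 8.33% of GastG cells. No cell of IntP (45) or IntD (35) had it, which allows up to 3 cells in each. The difference was 0.83 ± 0.26 for IntL against the other Int codes, 0.12 ± 0.18 for Gast against Int and 0.01 ± 0.17 for Port against Gast and Int. With edgeR on summed reads these were 4.37, 1.86 and 0.55. The 2 IntL mice with more Cxcl10 also had more Apoe, at 7.85 and 9.09, against 6.47 in the other. Across the arms, median Apoe was highest in Port mice, at 5.79, against 5.21 in Gast and 5.07 in Int, beside the Port difference in Cxcl10 of 0.01. The part of glial RNA in these levels was not tested.

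Cxcl10 was detected mostly in picked cells that also held satellite glia transcripts. It was found in 38 cells (16.9%) at or above the median Apoe CPM of 11.4 and in 3 cells (1.34%) below it. The median Apoe CPM was 3024 in cells with Cxcl10 and 7.82 in cells without. Of the 41 cells with Cxcl10, 40 also had Apoe and 35 had Fabp7. For the other members the shares lay closer together: Dhx58 was found in 56.4% of the high and 47.3% of the low cells, and Iigp1 in 18.2% and 15.6%. The median Apoe CPM was 20.5 with and 7.57 without Dhx58, and 18.3 with and 10.3 without Iigp1. Irf5 was found in 80.9% of the high and 79.02% of the low cells, Ccl2 in 20.9% and 20.5%, Ifi27l2a in 65.3% and 63.8%, and Phf11b in 12.0% and 13.8%.

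Iigp1 (chr18:60376027-60392634, overlapping no other gene) encodes an interferon-inducible GTPase that attacks the vacuoles of intracellular parasites. It had 0.26, 0.73 and 1.33 as the lowest, median and highest Port mouse, 0.78, 1.10 and 3.27 for Gast and 0, 1.07 and 2.17 for Int. Dhx58 (LGP2), a cytosolic sensor of viral RNA that lacks the signalling domain of its relatives, had 1.09, 2.00 and 3.27 in Port, 1.83, 2.52 and 3.42 in Gast and 1.96, 2.60 and 3.91 in Int. For both genes all 3 arms overlapped. The IntL mice held 2.17, 1.85 and 1.10 of Iigp1 and 3.89, 3.91 and 2.57 of Dhx58. IntL against the other Int codes differed by 0.80 ± 0.37 for Iigp1 and 0.78 ± 0.43 for Dhx58, and Port against Gast and Int by -0.47 ± 0.24 and -0.45 ± 0.28. Gast against Int differed by 0.20 ± 0.26 for Iigp1 (-0.03 without GastG mouse 7) and by -0.36 ± 0.30 for Dhx58 (0.05 among mice numbered up to 39). With edgeR the Port difference of Iigp1 was -1.22 and that of Dhx58 -0.13, and the IntL difference of Iigp1 was 1.36. Among mice numbered up to 39 the Port difference was -0.93 for Iigp1 and -1.38 for Dhx58.

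In the fit across 12688 genes (limma, Benjamini-Hochberg adjusted p under 0.05), 9.04% of genes were higher and 5.71% lower in Gast than in Int. There 3 members (Ccl2, Ifi27l2a, Phf11b) were on the higher and 1 (Irf5) on the lower side of the threshold, a count from which nothing is read because the values chose the members. For Port against Gast and Int, 2.04% of genes were higher and 2.95% lower, and for IntL against the other Int codes 3.04% and 2.47%. GastG against GastP called 0% of genes higher and 0% lower in limma and in edgeR, while DESeq2 called 6 higher. In limma 548 of the 12688 genes had an unadjusted p under 0.05, no more than that cutoff gives without any difference.

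Picked cells of the codes belonged to different kinds of neuron. Cells matched to the droplet cluster led by Sst and Ctxn3 made up 9.84% of Port, 36.2% of Gast (38 cells) and 0.592% of Int cells (1 cell). Of the Gast cells, 23 came from the mice numbered 7 to 10, where they were 57.5% of 40 cells, and 15 from the mice numbered above 40, where they were 23.1% of 65 cells. The mice numbered 7 to 10 are those without which the Gast against Int differences of Ifi27l2a, Phf11b and Ccl2 were smaller. Whether the share of such cells and these differences are linked was not tested. The cluster led by Gpr65 and Edn3 held 9.84% of Port, 2.86% of Gast and 34.3% of Int cells. That led by Dbh and Areg was common in all, at 26.2% of Port, 20% of Gast and 32.5% of Int cells. Over all matched cells the Sst and Ctxn3 kind had mean levels of 7.76 for Ifi27l2a, 3.21 for Phf11b, 3.07 for Ccl2 and 2.59 for Irf5. The Gpr65 and Edn3 kind had 3.30, 0.10, 0.86 and 5.70 for these genes in the same order. In these means Ifi27l2a, Phf11b and Ccl2 were higher in the kind of neuron frequent in Gast, and Irf5 in the kind frequent in Int. The means pool cells over mice, and such cells are not replicates. The part of the kinds of neuron in the Gast against Int differences was not tested. Within the Sst and Ctxn3 kind Gast and Int could not be compared, because Int had 1 such cell.

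Within cells matched to the Dbh and Areg cluster (mice of at least 2 such cells: 7 Port, 6 Gast, 11 Int), the arms overlapped for each of these genes. Irf5 had medians of 4.65 in Port, 5.05 in Gast and 5.10 in Int mice, with ranges of 2.62 to 5.71, 2.76 to 6.11 and 3.17 to 6.40. Ifi27l2a had medians of 5.24, 5.87 and 6.71, and Phf11b 0.27, 0.21 and 0.57, in the same order. Ccl2 had 1.86 in Port, 1.00 in Gast and 0.35 in Int mice. The gap between Gast and Int mice in Irf5 over all cells was not present within this kind of neuron, and the difference between the settings was not tested.

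**Figure D2:**
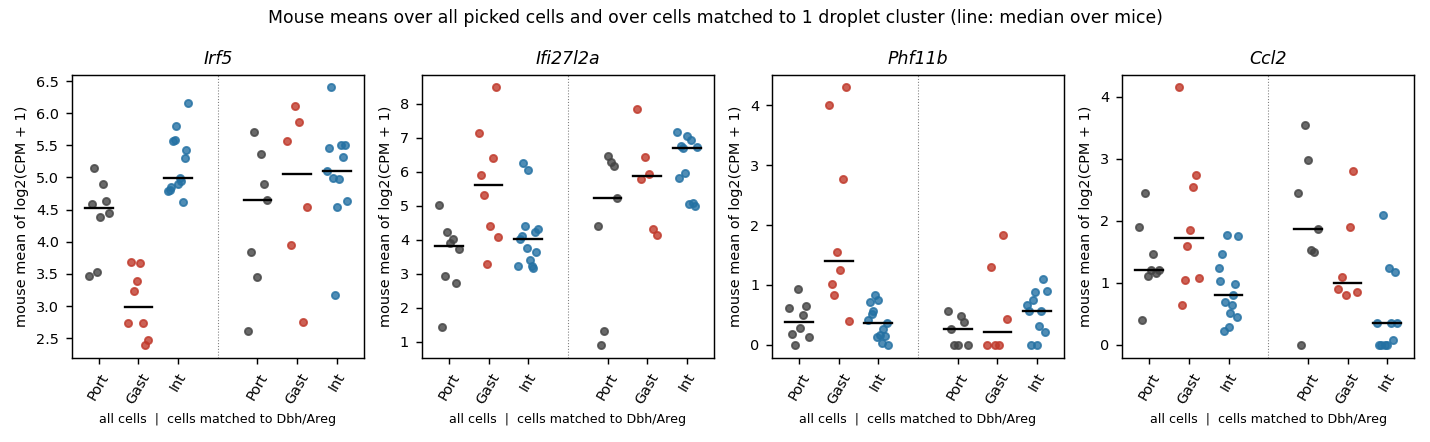
Mouse means of log2(CPM + 1) for Irf5, Ifi27l2a, Phf11b and Ccl2 over all picked cells (left of each panel) and over cells matched to the Dbh and Areg cluster (right), for Port, Gast and Int mice, with the median as a line. The Irf5 medians of 4.52, 2.98 and 4.99 over all cells stand beside 4.65, 5.05 and 5.10 over matched cells.

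Some members were found in a smaller share of Port cells with an injury transcript than of those without it. Sprr1a, which sensory neurons switch on after axon damage, was detected in 50 cells, 38 of them coded Port. In Port cells with Sprr1a, Ifi27l2a was found in 26.3% against 66.7% of the 84 Port cells without it, Dhx58 in 23.7% against 55.95% and Iigp1 in 5.26% against 15.5%. Irf5 was found in 89.5% of Port cells with Sprr1a and 78.6% of those without. These cells are pooled over mice and are not replicates. Port mice 21, 22 and 27 were among the highest in Sprr1a, so the shares do not separate cells from mice. The part of injury in the lower Port levels was not tested. Without the 4 mice highest in Sprr1a (Port mice 21, 22 and 27 and GastP mouse 44), the Port difference was -1.47 for Ifi27l2a, -0.05 for Dhx58 and -0.25 for Iigp1, against -1.41, -0.45 and -0.47 with them.

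Other genes of the interferon, chemokine and antigen presentation pathways were tested in the same fit. Of the genes in 5 pathway lists, 100 passed the filter and were tested. In Port against Gast and Int, 2 were higher and 8 lower, beside 2.04% and 2.95% of all genes, with a median log2 difference of -0.17, beside -0.04 over all genes. Among the interferon-stimulated genes 4 of 38 were lower and 0 higher (median -0.45), and among antigen presentation genes 4 of 16 were lower and 0 higher (median -0.35). Cmpk2, a mitochondrial nucleotide kinase, averaged 4.41 ± 1.18 in Port (SD, n = 8), against 5.45 ± 0.47 in Gast (n = 8) and 5.43 ± 0.31 in Int (n = 13), a difference of -1.01 ± 0.28 (SE, adjusted p = 0.038). Gbp7 (-0.90 ± 0.24) and Trim25 (-0.74 ± 0.19), a ubiquitin ligase of RNA sensing, were lower too. So were the immunoproteasome subunits Psmb8 (-0.93 ± 0.24) and Psmb9 (-0.81 ± 0.22) and the class II gene H2-Ab1 (-0.70 ± 0.21). Csf1, the macrophage growth factor, was higher at 4.11 ± 1.33 in Port, against 3.44 ± 0.77 in Gast and 1.74 ± 0.73 in Int (1.44 ± 0.33, adjusted p = 0.0205). So was the chemokine Cxcl16 (1.10 ± 0.25). These were the 2 that passed of 10 genes tested from the chemokine and receptor list, in which Csf1 was placed. Of the sensor and signalling genes, the most abundant, the kinase Jak1 and the transcription factor Stat3, differed by -0.31 and 0.19 and did not pass. Without the 4 mice highest in Sprr1a the counts were 0 higher and 0 lower, and among mice numbered up to 39 they were 7 and 32. The shares of all genes under those settings are not given here, so these moves are not read as particular to the pathway lists. Of 13 injury genes tested, 6 were higher in Port, with a median log2 difference of 1.44. Csf1 is in that list as well and is among the 6.

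In Gast against Int, 8 of the 100 pathway genes were higher and 5 lower (median 0.13, beside 0.07 over all genes). These shares are no larger than the 9.04% and 5.71% over all genes. Of them 5 of the higher and 1 of the lower were among the 30 sensor and signalling genes. Socs3, the feedback inhibitor of JAK signalling, averaged 5.43 ± 0.59 in Gast and 3.16 ± 0.72 in Int (2.35 ± 0.35, adjusted p = 2.1e-05). Higher too were Csf1 (1.85 ± 0.36), Sp100 (1.24 ± 0.25), the transcription factors Irf1 (0.82 ± 0.27) and Stat2 (0.58 ± 0.17), and the receptor subunit Ifnar1 (0.26 ± 0.09). Lower were Oas1a, an antiviral synthetase, at 3.67 ± 0.85 in Gast and 5.40 ± 0.75 in Int (-1.72 ± 0.30, adjusted p = 0.000148), Ifitm2 (-1.39 ± 0.28), B2m (-0.60 ± 0.16), H2-Ab1 (-1.10 ± 0.23) and Zc3hav1 (-0.42 ± 0.12). Without the Gast mice numbered under 11 the counts were 2 higher and 3 lower, and the shares of all genes under that setting are not given here. In IntL against the other Int codes the transcription factor Relb was higher (0.85 ± 0.24) and Oas1a lower (-1.60 ± 0.43). In GastG against GastP the count was 0 in limma, edgeR and DESeq2. In limma 6 of the 100 pathway genes had an unadjusted p under 0.05, near what that cutoff gives without any difference.

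Over the 29 mice, each member was set beside the 3 genes whose mouse means were most like its own. For Cxcl10 these were Fabp7 (Pearson r 0.75), Sox10 (0.75) and Id3 (0.75), and for Ccl2 the neuropeptide gene Sst (0.82), Hgf (0.79) and Atoh8 (0.78). Phf11b was most like Tacr3 (0.94), a tachykinin receptor, Mdfic (0.91) and Tnfaip8 (0.90). Irf5 was most like Ddit3 (0.86), Hs3st4 (0.86) and Slc9b2 (0.86), and Ifi27l2a like Ostc (0.87), Ryr1 (0.83) and Cntnap5a (0.83). Iigp1 followed Gm4951 (0.84), Rgs16 (0.78) and Rab3il1 (0.77), and Dhx58 followed Nrsn2 (0.80), the interferon-induced Bst2 (0.79) and Yif1b (0.77). Between members the values were 0.76 for Ifi27l2a and Phf11b, 0.70 for Ccl2 and Phf11b and -0.69 for Irf5 and Phf11b. These are descriptions over mice that share target codes and depth.

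The droplet library held 1086 neurons of the filtered matrix (median 56142 unique molecular identifiers, UMIs) and 489 glia. Glia are barcodes of the raw matrix with at least 1000 UMIs and an Apoe CPM of 20000 or more (median 5170 UMIs). Just inside that cut lay 57 glia of 20000 to 40000 Apoe CPM, and just outside it 52 barcodes of 10000 to 20000. As 1 library, it allows no test, and intervals cover counting error only. Neuronal RNA was present in glial barcodes: Snap25 had a UMI in 56.2% of glia and 100% of neurons, at 160.9 and 1592 CPM. All 1108 filtered barcodes were also found in the raw matrix, and 18 glia held UMIs of at least 2 macrophage markers.

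Cxcl10 was the member most abundant in glia relative to neurons, at 128.5 CPM in glia and 4.33 CPM in neurons, a ratio of 29.7 (95% interval 25.4 to 34.7). It had a UMI in 13.7% of glia (67 of 489) and 6.81% of neurons (74 of 1086). Among neurons, the 543 at or above the median Apoe CPM of 258.2 had Cxcl10 at 8.76 CPM, in 65 cells. The 543 below it had 0.310 CPM, in 9 cells. Irf5 was near level across the same split, at 7.92 CPM above and 9.10 CPM below. Thinned to 3000 UMIs per cell, the ratio of Cxcl10 was 18.8 (12.2 to 30.2), with 68 shallower glia left out.

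Ccl2 stood at 17.04 CPM in glia and 5.23 CPM in neurons, a ratio of 3.26 (2.37 to 4.39), but in 1.64% of glia and 14.2% of neurons. Without the 18 glia with macrophage UMIs, a setting chosen after seeing the data, Ccl2 was 6.62 CPM in glia, a ratio of 1.27 (0.753 to 2.01). Iigp1 was at 7.50 CPM in glia and 3.74 CPM in neurons (ratio 2.01, 1.24 to 3.10), from 22 glial UMIs, and after thinning the ratio was 0.890 (0.387 to 1.88). The cells behind both glial sums were few, at 8 of 489 each.

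The other members were lower in glia. Ifi27l2a was at 176.5 CPM in glia and 364.2 CPM in neurons (ratio 0.485, 0.444 to 0.529), with a UMI in 41.9% and 79.3% of cells. Thinned to 3000 UMIs per cell, its ratio was 0.688 (0.590 to 0.799), with a UMI in 29.7% of glia and 25.8% of neurons. Irf5 was at 3.75 CPM in glia and 8.54 CPM in neurons (0.439, 0.218 to 0.791), Dhx58 at 1.70 and 3.99 CPM (0.427, 0.138 to 1.01), and Phf11b at 1.02 and 2.39 CPM (0.427, 0.0872 to 1.27). In the 471 glia without macrophage UMIs, Irf5 and Phf11b had 0 UMIs, whose exact upper bound is 1.29 CPM. Across 14787 genes of at least 20 UMIs, 19.6% lay past a 2-fold excess in glia and 35.1% past a 2-fold deficit. On that fold, 3 members were higher and 4 lower, again a description of a chosen list. With glia at an Apoe CPM of 40000 or more, only Cxcl10 of the 3 remained over 2-fold higher.

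**Figure D3:**
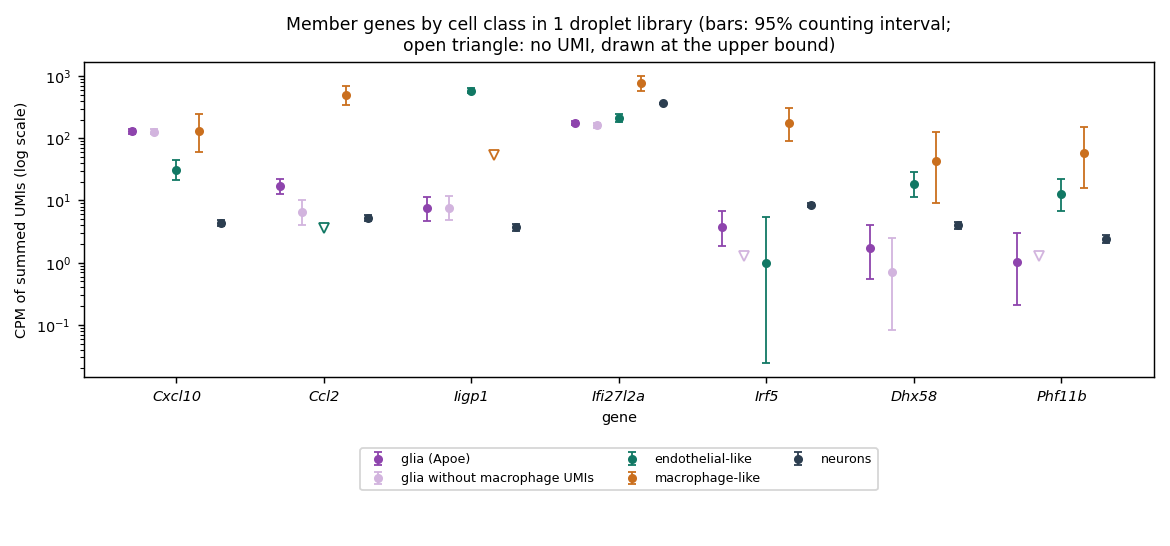
CPM of summed UMIs (log scale) of each member in Apoe glia, glia without macrophage UMIs, endothelial-like barcodes, macrophage-like barcodes and neurons of 1 droplet library, with 95% counting intervals and open triangles at the upper bound where no UMI was found. Iigp1 stands highest in endothelial-like barcodes (583.6 CPM), and Ccl2 (497 CPM) and Irf5 (175.4 CPM) in macrophage-like ones.

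Clusters of all raw barcodes of at least 1000 UMIs, made without the members, placed several of them in other cell types. In the endothelial-like cluster (with Sox17 and Cldn5 among its leading genes), Iigp1 had 596 UMIs, or 583.6 CPM, and in the mural-like cluster (58 barcodes) 215.3 CPM. In the macrophage-like cluster (19 barcodes, led by C1qa, 18 of them within the Apoe glia), Ccl2 was at 497 CPM, Ifi27l2a at 760.1, Irf5 at 175.4 and Phf11b at 58.5, while Iigp1 had 0 UMIs. Satellite-glia-like clusters held Cxcl10 at 82.9 and 245.6 CPM. An unnamed cluster led by Kcna1, with Fos and Fosb among its leading genes, held Cxcl10 at 285.1 CPM and Ccl2 at 144.6 CPM.

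Within neurons each member had its own pattern over 20 clusters. Ifi27l2a was at 1517 CPM (95% interval 1487 to 1547) in the cluster led by Sst and Ctxn3, where 98.8% of cells had it and which held 39.7% of its neuronal UMIs. It was at 843.6 CPM in the Dbh and Areg cluster, 478.5 CPM in the Trpa1 and Gpr174 cluster and 451.4 CPM in the Prdm12 and Gfra3 cluster. In 12 clusters it lay between 19.1 and 60.4 CPM. The order of the top 2 was separated beyond counting error, while the intervals of the third (458.8 to 498.7) and the fourth (429.1 to 474.5) overlapped.

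Irf5 was highest in the Uts2b and Gabre cluster, at 21.4 CPM (17.6 to 25.8), then at 17.1 CPM in the Ctla2a and Vip cluster and 16.7 CPM in the Gpr65 and Edn3 cluster, with overlapping intervals. It had a UMI in 77.5% of the Gpr65 and Edn3 cells. The Sst and Ctxn3 cluster had 5.12 CPM (3.52 to 7.18), and 2 small clusters had 0 UMIs. In picked cells matched to these clusters the mean log2(CPM + 1) was 5.37 for Uts2b and Gabre, 5.66 for Ctla2a and Vip, 5.70 for Gpr65 and Edn3 and 2.59 for Sst and Ctxn3. The Sst and Ctxn3 kind was the lowest of the 4 in both data sets, while the order of the other kinds differed.

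Phf11b was at 22.6 CPM (17.8 to 28.2) in the Prdm12 and Gfra3 cluster, which held 47.5% of its UMIs, and at 4.03 CPM in the Sst and Ctxn3 cluster. 6 clusters had no UMI of it. Ccl2 reached 27.4 CPM (21.99 to 33.8) in the Aqp1 and Mdfic cluster, 12.0 CPM in the Prdm12 and Gfra3 cluster and 8.99 CPM in the Sst and Ctxn3 cluster, where the last 2 had overlapping intervals. Dhx58 was highest at 11.3 CPM (8.49 to 14.8) in the Trpa1 and Gpr174 cluster, followed by 6.18 CPM (4.59 to 8.15) in the Efcab6 and Stk32a cluster. Ccl2 and Phf11b shared 25 neurons, against 12.5 expected from their shares, and Irf5 and Dhx58 shared 97, against 68. Deeper cells have more of every gene, and depth was not removed from these counts.

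**Figure D4:**
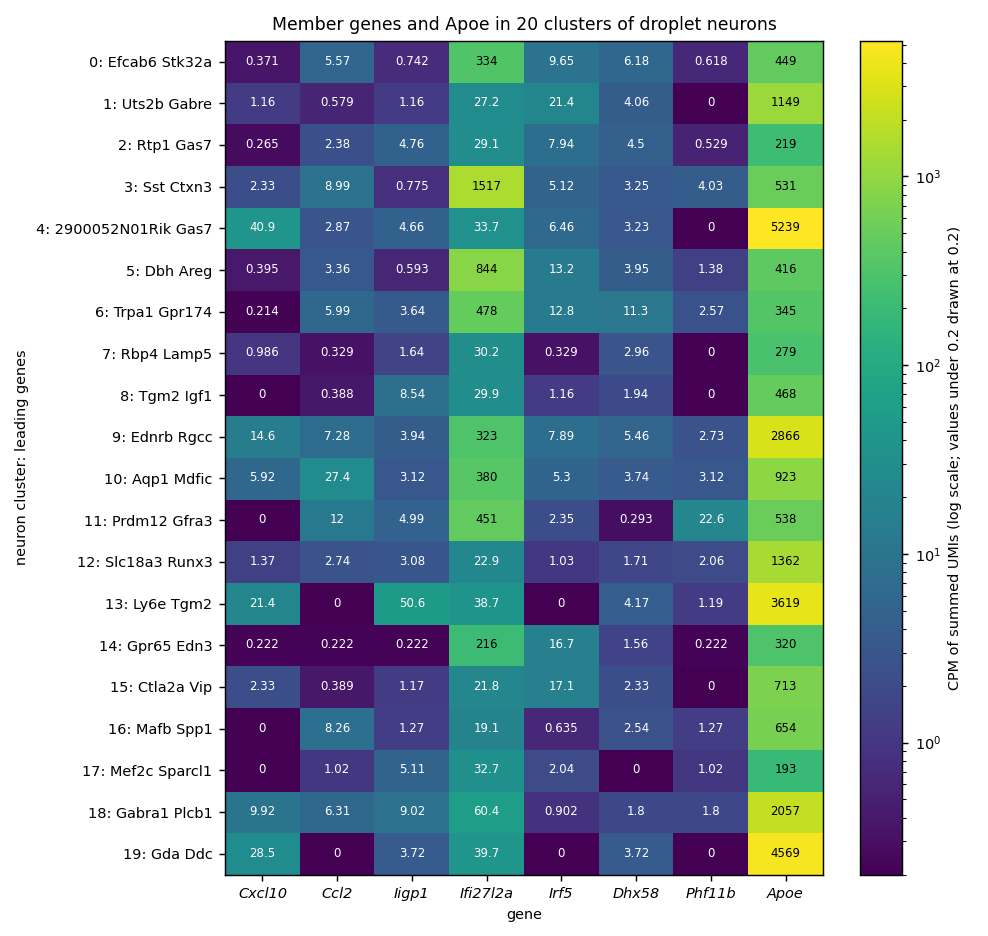
CPM of summed UMIs of the 7 members and Apoe in 20 clusters of droplet neurons, each named by 2 leading genes, with colour on a log scale. Ifi27l2a peaks at 1517 CPM in the Sst and Ctxn3 cluster, Phf11b at 22.6 CPM in the Prdm12 and Gfra3 cluster and Cxcl10 at 40.9 CPM in the cluster of highest Apoe, at 5239 CPM.

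The clusters with most Cxcl10 were those with most Apoe. Cxcl10 was at 40.9, 28.5, 21.5, 14.6 and 9.92 CPM in the 5 highest clusters, whose Apoe stood at 5239, 4569, 3619, 2866 and 2057 CPM. In the other 15 clusters Cxcl10 was at 5.92 CPM or less and Apoe at 1362 CPM or less. Over the 5 high clusters satellite glia transcripts moved with Cxcl10, and their part in its neuronal level was not tested. For Iigp1 the highest cluster, led by Ly6e and Tgm2, had 50.7 CPM and 268.1 CPM of the 4 endothelial markers. Without its 6 barcodes that fell in the endothelial-like cluster, Iigp1 there was at 26.4 CPM (19.03 to 35.7) and the endothelial marker Cldn5 at 3.77 CPM. With them, the 4 endothelial markers were at the 268.1 CPM above. Over all neurons, Iigp1 was 3.11 CPM without those 6 barcodes.

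**Figure D5:**
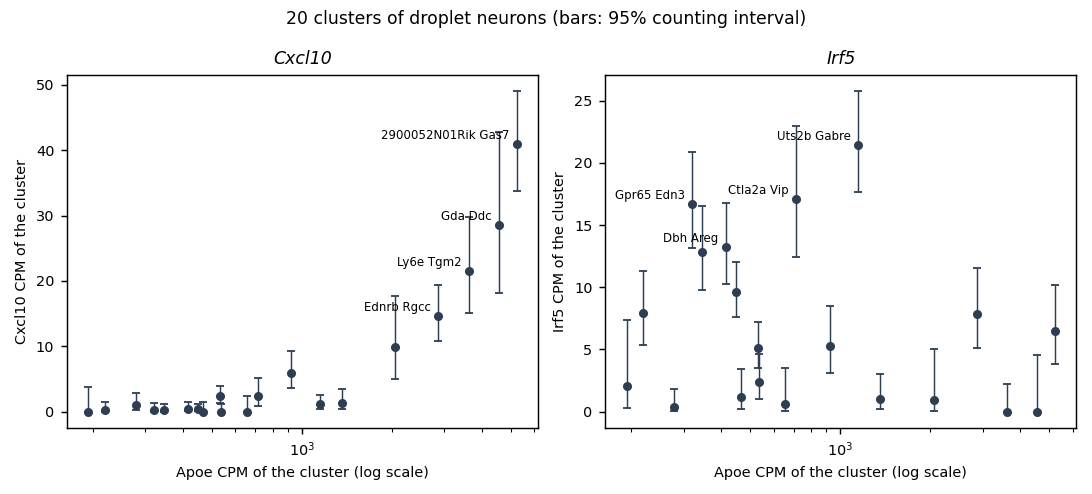
CPM of Cxcl10 (left) and Irf5 (right) against the CPM of Apoe (log axis) in 20 clusters of droplet neurons of 1 library, with 95% counting intervals. The 5 clusters of highest Cxcl10, at 9.92 to 40.9 CPM, are those above 2000 Apoe CPM, whereas Irf5 is highest, at 21.4 CPM, in a cluster with 1149 Apoe CPM.

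Neurons and glia held few UMIs of the interferon genes looked up and of the receptors Cxcr3 and Ccr2. Interferon receptor subunits were detected in both, with Ifngr2 in 97.15% of neurons and 21.06% of glia. The shares of cells in this paragraph are not thinned, and median depth was 56142 UMIs in neurons and 5170 UMIs in glia. Cxcr3, the receptor of CXCL10, had 0 UMIs in both, and Ccr2, the receptor of CCL2, had 12 UMIs in glia and 1 in neurons. The interferon genes looked up were Ifna2, Ifna4, Ifnb1, Ifng, Ifnk, Ifnl2 and Ifnl3. They had 0 UMIs in both except Ifnb1, with 1 in neurons. Other interferon genes were not looked up. Of the interferon receptor subunits, Ifngr2 and Il10rb had the most neuronal UMIs. Both were lower in glia, with Ifngr2 at 44.3 CPM in glia and 87.3 CPM in neurons and Il10rb at 50.1 and 66.7 CPM. Others were higher in glia, with Ifngr1 at 69.5 CPM in glia and 11.5 CPM in neurons, Ifnar2 at 59.98 and 10.3 CPM, and Ifnar1 at 32.03 and 26.3 CPM. Among pathway genes with at least 20 UMIs, 76 were more than 2-fold higher in glia and 13 more than 2-fold lower. Their median ratio was 2.59, beside 0.782 over all genes. By list these were 26 and 5 of 40 interferon-stimulated genes and 18 and 4 of 33 sensor and signalling genes. They were 2 and 1 of 6 ligands and receptors, 15 and 3 of 21 chemokines and receptors and 15 and 0 of 18 antigen presentation genes. Over all genes, 19.6% were higher and 35.1% lower by that fold. Isg15, a ubiquitin-like protein, was at 197.7 CPM in glia and 4.26 CPM in neurons, and Ifitm3, a membrane protein that blocks virus entry, at 786.2 and 26.8 CPM. Cd74, the invariant chain of class II antigen presentation, was at 758.3 and 0.916 CPM, but in 4.09% of glia and 5.525% of neurons. It was among the leading genes of the macrophage-like cluster, where 18 of 19 barcodes lay within the Apoe glia. Lower in glia were the kinase Jak1 (a ratio of 0.177), Trim25 (32.4 and 91.4 CPM) and the atypical chemokine receptor Ackr1 (6.48 and 121.7 CPM). Without glia with macrophage UMIs, 58 pathway genes were above that fold and 21 below it, with a median ratio of 2.12. Fewer pathway genes had 20 UMIs under that setting, so these counts are not set against 76 and 13.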

How the data were processed

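For the picked cells the authors deposited log2 values of reads per gene, with a floor of log2(0.02) for 0 reads, and the deposited counts (UMIs) of the droplet library came as filtered and raw matrices. Other columns in the deposited gene table hold identifiers. Cell Ranger 2.0.1 and the build mm10 are named in the submitters' processing notes, while no source used here names an aligner for the picked cells. Reads were recovered from the log2 values (94.1% whole within 1 part in 1000). Cells of at least 2000 genes were scaled to CPM and log2(CPM + 1) was averaged per mouse (at least 4 cells). Genes with 10 reads in 5% of cells entered limma 3.58.1 (R 4.3.3, trend, Benjamini-Hochberg at 0.05). edgeR 4.0.16 and DESeq2 1.42.0 on reads summed per mouse, rounded, were alternatives. Mice are numbered by the authors' headers and no label says that they were processed apart. Droplet cells were clustered with scanpy 1.11.5 and leidenalg 0.10.2 (Python 3.11.15) without the members, pathway and injury genes. No doublet caller was run. Counts were summed per class, with exact Poisson or Clopper-Pearson 95% intervals that cover counting error only. The members and gene lists were chosen with earlier results of these data known. The genes named from a list are the 3 highest and 3 lowest past the threshold, or the 2 of highest mean level where none passed, and in the droplet library the 3 with most neuronal UMIs and the 3 highest ratios. A few named besides were chosen after their values were seen. 1 column with no sample was not used, and some named results are not reported here. The fit was tested on simulated data.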

Additional observations from a re-analysis of the deposited data

Results flagged for a closer look

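In the code GastG, Iigp1 stood at 3.27 (mean log2(CPM + 1)) in mouse 7, which had 5 cells, while the other 4 mice lay between 0.78 and 1.303. Phf11b was likewise far from the others in that mouse, at 4.01 against 0.83 to 1.55. In IntP, mouse 11 held 1.24 of Iigp1, while the others lay between 0.89 and 0.90. Of 21 groups examined for a sample far from the rest, 3 held one, and chance gives about 1 in 20 groups.

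As one group, which the comparison of glia with neurons does not use, raw droplet barcodes that are neither neurons nor Apoe glia held Iigp1 at 175.9 CPM, above both glia (7.50 CPM) and neurons (3.74 CPM). Of these UMIs most lay in the endothelial-like and mural-like clusters described above.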

How the results depend on the processing

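Member differences past the threshold in limma kept their sign under every alternative. Others did not: for Port against Gast and Int, Cxcl10 kept it in 26 of 39 alternatives (-0.11 to 0.57) and Ccl2 in 35 (-0.49 to 0.26). For Gast against Int, Cxcl10 (-0.01 to 1.86) and Iigp1 (-0.03 to 0.83) kept it in 38 of 39 and Dhx58 (-0.73 to 0.05) in 39 of 40. For GastG against GastP, Ccl2 kept it in 33 of 39 (-0.87 to 0.42), Iigp1 in 37 (-0.37 to 0.92), Phf11b in 37 (-1.80 to 0.80), Dhx58 in 32 of 40 (-0.26 to 0.51) and Ifi27l2a in 39 of 40 (-2.24 to 0.24). The glia to neuron ratio of Iigp1, 2.01, was 0.890 after thinning. Pathway genes higher in Port (2) numbered 0 without the 4 mice highest in Sprr1a, 7 among mice up to 39, 0 without Gast mice under 11, 4 with edgeR and 5 with DESeq2. Those lower in Port (8) numbered 1 without a low-value filter, 0 without the same 4 mice, 32 among mice up to 39, 0 without Gast mice under 11 and 2 with edgeR. Those higher in Gast than in Int (8) numbered 4 without a filter, 5 with 10 reads in 20% of cells, 15 among mice up to 39, 2 without Gast mice under 11 and 14 with DESeq2. Those lower (5) numbered 3 without Gast mice under 11. Those higher in IntL (2) numbered 1 with a pseudocount of 0.1, 10 without the 4 mice, 4 among mice up to 39, 4 without Gast mice under 11, 5 with edgeR and 7 with DESeq2, and the 1 lower numbered 0 with edgeR and with DESeq2. Leaving out each mouse gave 0 to 3 higher and 0 to 16 lower in Port, 3 to 10 and 3 to 6 in Gast against Int, 0 to 0 in GastG against GastP, and 0 to 3 and 0 to 1 in IntL. In the droplet library, members over 2-fold higher in glia (3) numbered 1 at an Apoe CPM of 40000. Pathway genes over 2-fold lower (13) numbered 7 at 10000 and 21 without glia with macrophage UMIs. The number of pathway genes with at least 20 UMIs differed between these settings. The setting without Gast mice under 11 and that without macrophage UMIs were chosen after seeing the data. The cause of these moves was not tested. Mouse means rest on 4 to 19 cells, and the droplet values on 1 library. No paired analysis was possible because the groups share no mouse numbers.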

Other observations

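The 4 mice coded na belong to no comparison. Their mean log2(CPM + 1) of Irf5 was 4.49, 5.25, 3.78 and 4.24, of Ifi27l2a 2.81, 4.18, 4.67 and 4.46, of Ccl2 1.32, 1.195, 2.86 and 1.71, and of Dhx58 3.15, 2.74, 1.87 and 2.84, for mice 31, 32, 36 and 37. Cxcl10 was at 0.62, 0.54, 0.49 and 0.24, Iigp1 at 0.69, 0.99, 1.19 and 1.35, and Phf11b at 0.45, 0.25, 1.19 and 0.56 in the same order.

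GastG mouse 7 was above all 4 other GastG mice for 34 of the 38 interferon-stimulated genes tested (89.5%) and below all of them for 0. Over all 12688 genes it was above them for 34.5% and below them for 20.9%. Ifit1 was at 7.33, while the other GastG mice held 3.25 to 3.85, and Irf7, a transcription factor of the interferon response, was at 4.94, while the others held 1.66 to 2.38. The mouse has 5 cells and was singled out after its values were seen.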
